A study of Mus musculus with 2 samples.

Results

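The Ly6 surface protein family was followed through 6 genes, Ly6g, Ly6c1, Ly6c2, Ly6i, Ly6e and Ly6a, which were found by their symbols in both expression tables. They were 6 of 35522 listed features. All 6 passed the level filter, an RPKM of at least 0.25 in both libraries, which kept 9698 features. RPKM, the unit of the tables, divides the reads of a gene by its exon length and by the depth of the library. It does not adjust for differences in RNA make-up between libraries, so values under other scalings are given as well.

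The RNA came from mouse bone marrow neutrophils sorted by antibodies as CD11b positive, Ly-6G high and Ly-6C low or negative, and kept in complete RPMI-1640 medium. GM-CSF, which sustains myeloid cells, was present at 10 ng/ml in both cultures, and mRNA libraries were sequenced. PBS was given to one culture for 3 days. The other received 20 μg/ml of tumor exosomes (ELV in the sample names) over the same 3 days, collected from sphere-derived cancer stem cells of the CT26 murine colon carcinoma line. The study obtained Balb/C mice of 5 to 8 weeks for isolating immune cells, and the sources used here do not say how many animals gave these cells or their sex. Each group held 1 library, so no value below has a spread between replicates and no difference was tested. In a bulk culture, fewer cells of a type and less RNA per cell cannot be told apart.

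Ly6 proteins are small, cysteine-rich proteins that fold into a compact domain and are held on the outer face of the cell membrane by a glycosylphosphatidylinositol (GPI) lipid anchor. They lack a cytoplasmic part, and several are used as lineage markers of blood cells. Ly6G marks mouse neutrophils, Ly6C (encoded by Ly6c1 and Ly6c2) is high on inflammatory monocytes and lower on neutrophils, and Ly6A, or Sca-1, marks hematopoietic stem cells and can be induced by interferon. Ly6E is an interferon-inducible member known for its effects on the entry of viruses. The cells had been chosen by antibodies against Ly-6G and Ly-6C, the proteins of Ly6g, Ly6c1 and Ly6c2. Both libraries were made after 3 days of culture, and the part of the sort in these RNA levels was not tested.

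The coding sequences show how alike these genes are, which bears on how reads can be told apart between them. The reference stretches from coding base 61 to 360 are printed 5′ to 3′ for 5 members, read from the GENCODE M21 models on GRCm38, and the capitals mark the 10 cysteine codons that lie in each stretch.
Ly6g: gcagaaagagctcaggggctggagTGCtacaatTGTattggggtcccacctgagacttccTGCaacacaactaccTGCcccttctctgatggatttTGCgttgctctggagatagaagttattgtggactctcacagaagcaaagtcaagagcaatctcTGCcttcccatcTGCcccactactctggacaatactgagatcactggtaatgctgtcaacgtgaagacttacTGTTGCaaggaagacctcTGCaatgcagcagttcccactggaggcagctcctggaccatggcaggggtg
Ly6c1: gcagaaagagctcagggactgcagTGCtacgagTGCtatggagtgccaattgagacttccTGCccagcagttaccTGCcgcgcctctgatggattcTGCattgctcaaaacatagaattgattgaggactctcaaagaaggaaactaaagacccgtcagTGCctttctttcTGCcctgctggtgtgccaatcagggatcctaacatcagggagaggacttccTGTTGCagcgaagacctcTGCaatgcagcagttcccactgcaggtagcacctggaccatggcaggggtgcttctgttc
Ly6c2: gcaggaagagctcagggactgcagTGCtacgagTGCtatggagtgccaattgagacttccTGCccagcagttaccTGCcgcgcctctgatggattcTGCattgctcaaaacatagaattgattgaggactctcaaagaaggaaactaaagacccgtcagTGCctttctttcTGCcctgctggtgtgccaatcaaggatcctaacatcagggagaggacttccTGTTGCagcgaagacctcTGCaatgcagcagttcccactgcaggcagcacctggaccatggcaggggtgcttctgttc
Ly6i: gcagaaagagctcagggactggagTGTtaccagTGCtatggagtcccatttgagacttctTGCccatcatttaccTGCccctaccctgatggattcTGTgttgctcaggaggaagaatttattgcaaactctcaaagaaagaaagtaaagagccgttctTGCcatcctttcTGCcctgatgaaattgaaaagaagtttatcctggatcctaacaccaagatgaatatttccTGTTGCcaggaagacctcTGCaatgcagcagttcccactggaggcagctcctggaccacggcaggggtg
Ly6e: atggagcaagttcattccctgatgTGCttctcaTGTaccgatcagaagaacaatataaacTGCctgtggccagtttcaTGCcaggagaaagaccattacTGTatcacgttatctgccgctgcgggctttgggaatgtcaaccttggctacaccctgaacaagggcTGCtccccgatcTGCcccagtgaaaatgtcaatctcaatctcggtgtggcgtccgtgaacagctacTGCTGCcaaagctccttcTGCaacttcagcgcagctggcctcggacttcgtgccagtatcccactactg
Ly6c1 and Ly6c2 were 97.7% identical over 396 coding bases, with 9 bases and 7 residues different. Ly6g was 81.6% identical to Ly6c1 and 80.1% identical to Ly6c2 over the same length. Ly6i was closest to Ly6a, at 86.4% of 405 bases. Ly6e stood apart, with 55.5% to 59.6% of aligned coding bases identical to those of the other members. The encoded proteins were 134 residues long for Ly6g, Ly6i and Ly6a, 131 for Ly6c1 and Ly6c2, and 136 for Ly6e. In whole transcripts, 36.7% of the 50-base windows of Ly6c1 and 33.0% of those of Ly6c2 also occurred in the transcripts of another gene, mostly of each other, against 10.0% for Ly6a, 4.97% for Ly6i, 0.448% for Ly6g and 0 for Ly6e. At 100 bases only Ly6c1 (15.3%) and Ly6c2 (15.8%) shared any window. How reads that match several genes were counted is not stated, so the split between Ly6c1 and Ly6c2 is uncertain, while their sum is less so. The reference is of the C57BL/6J strain, and the cells came from Balb/C mice.

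The members went in different directions. RNA of the 3 genes that encode Ly6G and Ly6C was 4.53 to 5.11 times lower in exosome-treated than in PBS-treated neutrophils, Ly6i was 59.3 times higher, Ly6a was 3.81 times higher from a low level, and Ly6e was within 2-fold. With a ratio of at least 2 called up and of at most 0.5 called down, 3 members were down and 2 were up. Among all 9698 genes kept, 5.62% were down and 31.5% were up by the same rule, so lower RNA was the less common direction in these libraries and the share of members up was near that of all genes. The median log2 ratio was -1.03 over the 6 members and 0.53 over all genes kept. Removing a trimmed mean of the log ratios, which brings the bulk of genes of both libraries together, left 16.4% of all genes up and 13.6% down, and the members' counts stayed at 2 up and 3 down.

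**Figure D1:**
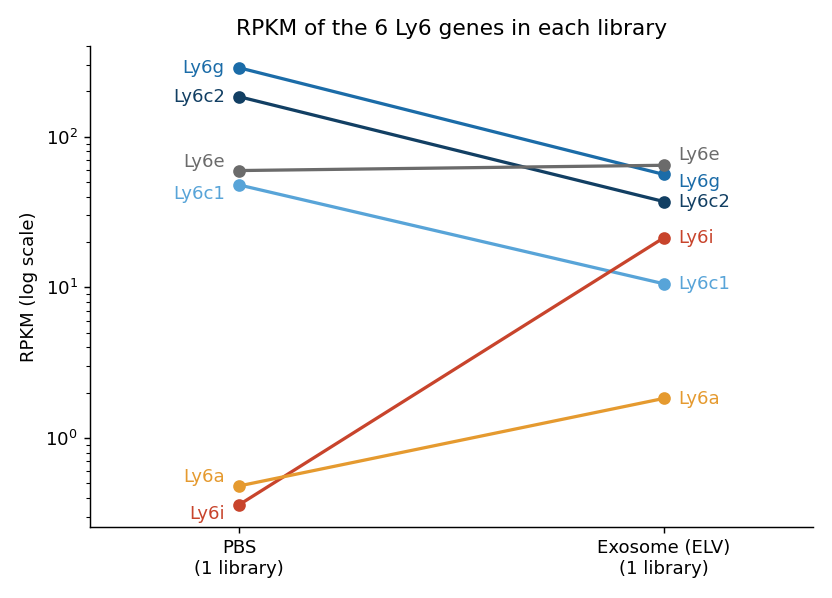
RPKM on a log axis of each Ly6 gene in the PBS library and in the exosome (ELV) library, with a line joining the 2 values of a gene. Ly6g, Ly6c2 and Ly6c1 run downward nearly in parallel, Ly6e runs level, and Ly6i crosses from 0.36 to 21.3 RPKM.

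Ly6g, the gene of the neutrophil marker used in the sort, had 287 RPKM in PBS-treated neutrophils and 56.2 RPKM in exosome-treated neutrophils. It was high in the first library and slightly below Ly6e in the second. Its log2 ratio was -2.35, with a 95% counting interval of -2.40 to -2.30. All counting intervals given here are exact Clopper-Pearson intervals of estimated reads, and they cover counting error only, not the variation between cultures or animals. They rest on estimated depths of 66.0 M reads (PBS) and 79.1 M reads (exosomes), where M is mega. Ly6g was the 148th most abundant of all features in PBS and the 1007th with exosomes. Of the 1099 genes with a mean of at least 50 RPKM, 11.4% were down, and 10 genes, Ly6g included, had a log2 ratio as low as its own or lower. The median log2 ratio of those 1099 genes was 0.04.

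Ly6c2, the more abundant of the Ly6C genes, had 184 RPKM in PBS and 37.1 RPKM with exosomes. The log2 ratio was -2.31 (counting interval -2.38 to -2.25), next to Ly6g among the genes of that level. Ly6c1, its near copy, had 47.8 RPKM in PBS and 10.6 RPKM with exosomes, a log2 ratio of -2.18 (counting interval -2.30 to -2.06). Among the 2989 genes with a mean from 10 to 50 RPKM, 5.15% were down, and 24 had a log2 ratio at or below that of Ly6c1. Summed over both genes, which depends less on how reads were split between them, Ly6C RNA went from 232 to 47.7 RPKM. This sum was 4.87 times lower with exosomes, a log2 ratio of -2.28 (counting interval -2.34 to -2.23).

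The 3 genes kept nearly the same proportions to each other while their levels differed. Ly6g RNA stood at 1.56 times that of Ly6c2 in PBS (counting interval 1.52 to 1.59) and at 1.51 times with exosomes (1.44 to 1.59), and these intervals overlap. The Ly6c2 to Ly6c1 ratio was 3.85 in PBS (3.69 to 4.03) and 3.52 with exosomes (3.23 to 3.83). The Ly6g to Ly6c1 ratio was 5.998 (5.76 to 6.25) and 5.32 (4.91 to 5.77), where the intervals overlap only slightly. Overlap of separate intervals does not test whether a ratio differed, and these intervals take the split of reads between genes as known.

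Ly6i, a member close to Ly6a in sequence, had 0.36 RPKM in PBS and 21.3 RPKM with exosomes. The PBS value rested on about 27 estimated reads and lay close to the level filter, whereas the exosome value rested on about 1952. Its log2 ratio was 5.89, and the small PBS number widened the counting interval to between 5.37 and 6.52. Of all 9698 genes kept only 2 had a higher log2 ratio, Tifab (7.73) and C3ar1 (7.17). Genes under 0.25 RPKM in PBS are outside this ranking, whatever their level with exosomes. In the range from 10 to 50 RPKM, where 18.4% of genes were up, 1 other gene reached a log2 ratio as high. With a pseudocount of 1 RPKM added to both values the log2 ratio of Ly6i was 4.04.

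Ly6a, the Sca-1 gene, had 0.48 RPKM in PBS and 1.83 RPKM with exosomes, from about 30 and 138 estimated reads. Both levels were the lowest or next to lowest of the family. Of the 50-base windows of Ly6a, 10.0% also occurred in transcripts of other genes, Ly6c1 and Ly6i among them. How far shared reads enter its small read numbers was not tested, and the counting interval does not cover this. The log2 ratio was 1.93 (counting interval 1.36 to 2.56). A higher value was common at its level. Of the 2950 genes with a mean from 1 to 5 RPKM, 50.2% were up, with a median log2 ratio of 1. Measured against the genes nearest to it in mean log2 RPKM, a narrower set whose median log2 ratio was 1.08, Ly6a had a log2 ratio of 0.85, below the 2-fold limit, and with a pseudocount of 1 it was 0.94.

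Ly6e had 59.6 RPKM in PBS and 64.6 RPKM with exosomes, the most even pair of the family. Its log2 ratio of 0.12 (counting interval 0.08 to 0.16) was small, and its sign depended on the scaling: it was -0.41 after centring on the median of all genes and -0.43 after removal of the trimmed mean. The median log2 ratio of all genes kept was 0.53. Relative to that median, the values were -2.88 for Ly6g, -2.84 for Ly6c2, -2.71 for Ly6c1, 5.36 for Ly6i and 1.40 for Ly6a.

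**Figure D2:**
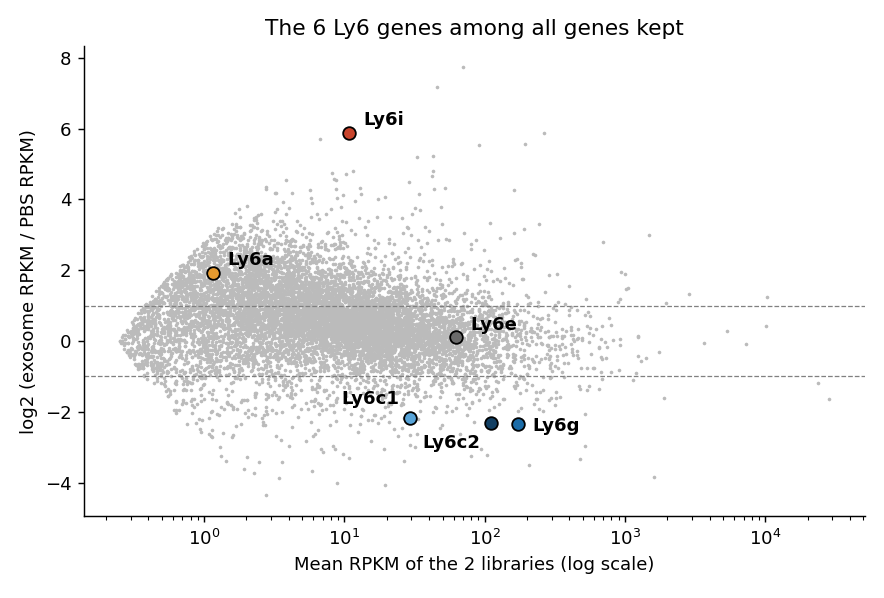
Log2 of the exosome to PBS ratio of RPKM against the mean RPKM of the 2 libraries (log axis) for the 9698 genes kept, grey, with the 6 Ly6 genes in colour and dashed lines at 2-fold. Ly6g, Ly6c2 and Ly6c1 lie on the lower edge of the cloud, Ly6i near its upper limit, and Ly6e and Ly6a within it.

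The order of the members by level differed between the libraries. In PBS it ran Ly6g, Ly6c2, Ly6e, Ly6c1, Ly6a and Ly6i. Neighbours in that order were apart by more than counting error except for the last pair, where the Ly6a to Ly6i ratio of 1.33 had an interval of 0.77 to 2.35. With exosomes the order ran Ly6e, Ly6g, Ly6c2, Ly6i, Ly6c1 and Ly6a. Here Ly6e exceeded Ly6g by a ratio of 1.15 (counting interval 1.11 to 1.19), where in PBS that ratio had been 0.208. Ly6i RNA was 2.02 times that of Ly6c1 (1.85 to 2.21) and 11.7 times that of Ly6a (9.83 to 14.0) in the exosome library.

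Summed over the 6 genes, family RNA went from 579.7 RPKM in PBS to 192 RPKM with exosomes, 3.02 times lower. The log2 ratio of the sum was -1.60 (counting interval -1.62 to -1.57). Ly6g, Ly6c1 and Ly6c2 made up 89.6% of this sum in PBS and 54.2% with exosomes. The share of Ly6g alone was 49.5% and 29.3%. Ly6e went from 10.3% to 33.7% of the sum with hardly any change of its own level, and Ly6i from 0.0621% to 11.1%.

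**Figure D3:**
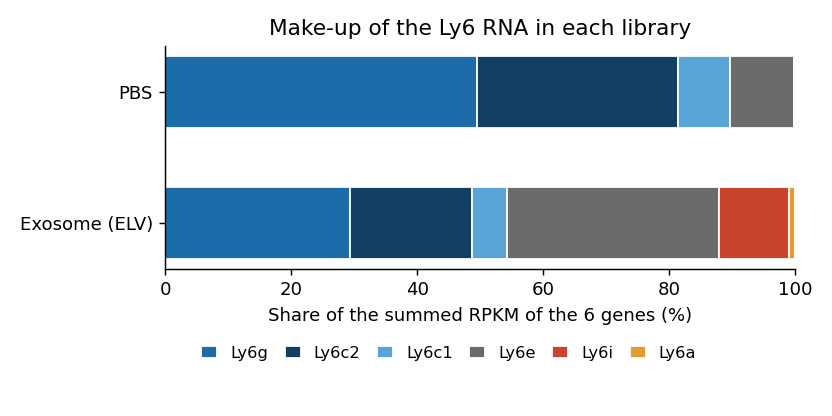
Share of the summed RPKM of the 6 Ly6 genes, in percent, held by each gene in the PBS library (top) and the exosome library (bottom). Ly6g, Ly6c2 and Ly6c1 hold 89.6% of the upper bar and 54.2% of the lower one, where Ly6e and Ly6i take most of the rest.

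All 6 genes lie on chromosome 15, within 204 kb of the GRCm38 build. From low to high coordinates they are Ly6e (chr15:74955051-74959905, plus strand), Ly6i (chr15:74979534-74983430, minus strand), Ly6a (chr15:74994877-74998031, minus strand), Ly6c1 (chr15:75044018-75048830, minus strand), Ly6c2 (chr15:75108158-75111970, minus strand) and Ly6g (chr15:75155240-75159126, plus strand). Ly6i and Ly6a, the members called up, follow Ly6e, and Ly6c1, Ly6c2 and Ly6g, the members called down, lie at the other end. Listed pseudogenes lie between some of the members. Gm8000, between Ly6i and Ly6a, and Gm5960, between Ly6c1 and Ly6c2, were at 0 in both libraries. I830127L07Rik (chr15:75131377-75135128, minus strand), between Ly6c2 and Ly6g, was above 0 in both libraries. GENCODE lists it as a transcribed pseudogene and RefSeq as Ly6a2. It had 2.79 RPKM in PBS and 0.44 RPKM with exosomes, a log2 ratio of -2.66 (counting interval -3.36 to -2.06) from about 134 and 25 estimated reads. Some 50-base windows of Ly6c2, Ly6i and Ly6a also occurred in its transcripts. How far shared reads enter its small read numbers was not tested, and the counting interval does not cover this.

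**Figure D4:**
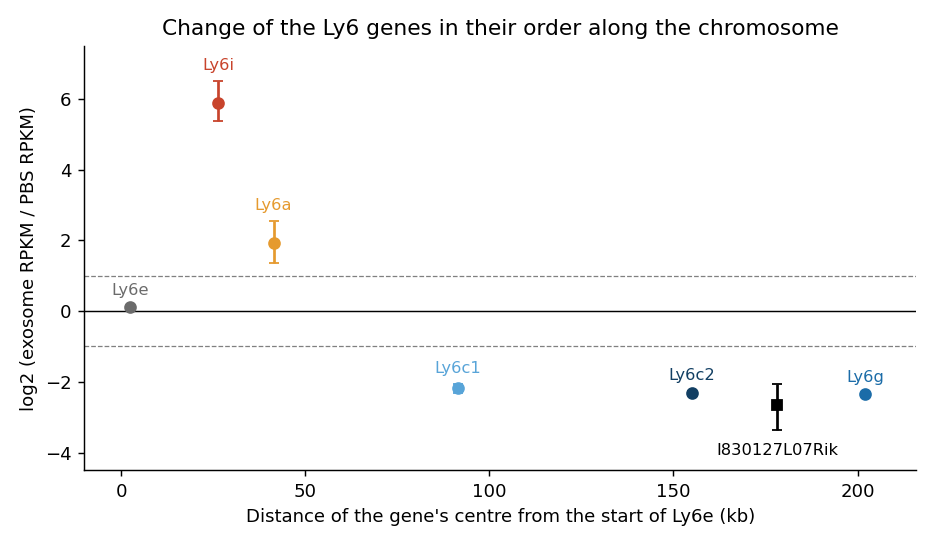
Log2 of the exosome to PBS ratio of RPKM for each Ly6 gene (circles) and I830127L07Rik (square), placed by the distance in kb of its centre from the start of Ly6e, with 95% counting intervals as bars and dashed lines at 2-fold. Ly6e, Ly6i and Ly6a on the left have log2 ratios of 0.12, 5.89 and 1.93, and the 4 genes on the right have -2.18 to -2.66.

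Of 34 other listed genes that start within 500 kb of this span, 22 were at 0 in both libraries. The 3 that reached 1 RPKM in either were I830127L07Rik, Ly6d and Zfp41. Among all 35522 features, 14679 were above 0 in PBS and 14916 with exosomes, and 7860 and 8878 reached 1 RPKM. Ly6d, a relative known from B lymphocytes and their precursors, had 11.4 RPKM in PBS and 7.70 with exosomes, a log2 ratio of -0.57 (counting interval -0.75 to -0.39). Zfp41, a zinc finger gene farther along, had 0.31 and 1.23 RPKM, a log2 ratio of 1.99.

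The sequences just upstream of the members that were lower together are shown because their start regions are related. RefSeq promoter windows on GRCm38.p6 were found for Ly6g, Ly6c1 and Ly6c2 and were trimmed here to the bases outside annotated transcripts, and Ly6i, Ly6e and Ly6a are named only. For Ly6c2, unlike Ly6g and Ly6c1, the sequence after the RefSeq start was not found in a GENCODE transcript of the gene. The windows are chr15:75155011-75155239 (plus strand) for Ly6g, chr15:75048921-75049087 (minus strand) for Ly6c1 and chr15:75112067-75112221 (minus strand) for Ly6c2. They are printed 5′ to 3′ on the strand of the gene, and the capitals mark AGGAAGT, a sequence of the kind bound by ETS factors such as PU.1.
Ly6g: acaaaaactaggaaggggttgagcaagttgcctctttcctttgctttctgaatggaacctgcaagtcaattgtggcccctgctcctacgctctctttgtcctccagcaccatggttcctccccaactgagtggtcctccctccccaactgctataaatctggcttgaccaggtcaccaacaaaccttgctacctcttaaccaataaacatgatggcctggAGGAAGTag
Ly6c1: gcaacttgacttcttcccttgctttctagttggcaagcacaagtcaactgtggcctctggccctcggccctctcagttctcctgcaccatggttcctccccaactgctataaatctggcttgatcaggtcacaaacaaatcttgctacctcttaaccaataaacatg
Ly6c2: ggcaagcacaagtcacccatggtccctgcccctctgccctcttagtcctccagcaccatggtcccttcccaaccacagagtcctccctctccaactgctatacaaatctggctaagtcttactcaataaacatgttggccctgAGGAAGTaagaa
Sequence matches were counted in the windows before trimming, of 250 bases each. AGGAAGT was found once in the Ly6g window and once in the Ly6c2 window, and not in that of Ly6c1. Searched on both strands, it occurred in 7.80% of 27025 promoter windows of the full length. TATAAA was found in the windows of Ly6g and Ly6c1 and in 12.97% of all windows. TTNNGNAA, the outline of a C/EBP site, was found in those of Ly6g and Ly6c2 and in 36.9% of all windows. GAAANNGAA, the core of an interferon response element, was in none of these windows and in 7.16% of all. Before trimming, the Ly6c1 window was 83.5% identical to that of Ly6g over 206 aligned bases and 75.9% identical to that of Ly6c2. The Ly6c2 and Ly6g windows were less alike, at 72.1% of 197 aligned bases. Counted over all 250 bases of a window, identical bases made up 68.8%, 65.6% and 56.8%, in the same order.

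The wider family of proteins with the same fold, the Ly6/uPAR family, was looked at next. Of 45 such genes in the tables, the 6 members included, 12 were kept and 22 were at 0 in both libraries. Of all 35522 features, 9698 were kept, 14679 were above 0 in PBS and 14916 were above 0 with exosomes. Of the 12 family genes kept, 6 were down and 2 were up. The members gave 3 of the 6 and both of the 2. Among all genes kept 5.62% were down and 31.5% up, so the 2 of 12 up were a smaller share than among all genes. With the trimmed mean removed, 9 of the 12 were down and 2 up, where 13.6% of all genes kept were down and 16.4% up. Cd177, a neutrophil surface protein of this fold, had 120.5 RPKM in PBS and 28.2 RPKM with exosomes, a log2 ratio of -2.09 (counting interval -2.13 to -2.05). Plaur, the urokinase receptor, had 122 and 32.9 RPKM, a log2 ratio of -1.90 (-1.95 to -1.84). Neither is a neighbour of the members on chromosome 15, and their log2 ratios were close to that of Ly6c1. Lypd6b had 6.37 and 2.68 RPKM, a log2 ratio of -1.25. Ly6g5b had 1.41 and 0.77 RPKM, a log2 ratio of -0.87, within 2-fold. The list's median log2 ratio over the 12 genes kept was -1.06, against 0.53 for all genes kept.

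Other leukocyte proteins with a GPI anchor were listed to see the class the members belong to. Of 21 listed, 15 were kept, 8 were down and 3 were up, with a median log2 ratio of -1.28, where 5.62% of all genes kept were down and 31.5% were up. This list also holds Cd177 and Plaur. The lowest log2 ratios were those of Sema7a, a membrane semaphorin, at -3.66 (10.9 to 0.86 RPKM), of Nt5e, the ectonucleotidase CD73, at -2.65 (50.8 to 8.12 RPKM), and of Cd177. The highest were those of Cd48, a ligand of the CD2 family, at 4.65 (3.22 to 80.9 RPKM), of Bst2, or tetherin, at 3.40 (2.54 to 26.8 RPKM), and of Prnp, the prion protein gene, at 1.43. Members and non-members with this anchor thus held both directions.

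The enzymes that build the GPI anchor and attach it to proteins held changes in both directions. Of 25 listed genes 23 were kept, 11 were up and 3 were down, with a median log2 ratio of 0.99. Of all genes kept, 31.5% were up and 5.62% were down, so calls up outnumbered calls down in the list as they did among all genes. Pigk and Pigu, subunits of the transamidase that joins the anchor to the protein, had log2 ratios of 3.02 and 2.45, and Pigf, which acts in adding ethanolamine phosphate, had 3.09. Pgap1, which remodels the anchor after attachment, was at 7.16 RPKM in PBS and 0.91 RPKM with exosomes, a log2 ratio of -2.98. Pigl and Pigb, which act in anchor synthesis, had log2 ratios of -1.30 and -1.06. Measured against genes of their own level, 5 of the 23 were up, where 12.5% of all genes kept were up by that measure.

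Interferon-stimulated genes were listed because Ly6e and Ly6a are known as interferon-inducible. Of 30 listed genes 27 were kept, 23 were up and none was down, with a median log2 ratio of 2.06, against 31.5% up, 5.62% down and a median of 0.53 for all genes kept. Zbp1, a sensor of nucleic acids, had a log2 ratio of 4.17, Bst2 of 3.40 and Oasl2, of the oligoadenylate synthetase family, of 3.14. The lowest were Cmpk2 at 0.35 and Stat2 at 0.66. Mx1 and Mx2 were listed at 0 in both libraries. Measured against genes of their own level, 21 of the 27 were up, against 12.5% of all genes kept. The log2 ratio of Ly6e, 0.12, was below every one of the 27, that of Ly6a, 1.93, was close to the list's median, and that of Ly6i was above all of them.

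**Figure D5:**
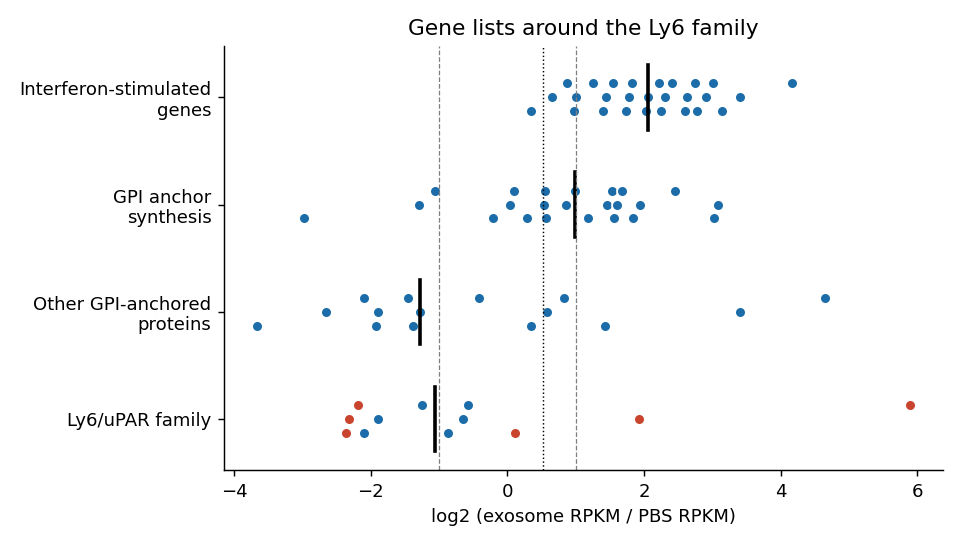
Log2 of the exosome to PBS ratio of RPKM for the kept genes of 4 lists, with 1 point per gene (members of the Ly6 set in red), black bars at the list medians, dashed lines at 2-fold and a dotted line at the median of all genes kept (0.53). The list medians are -1.06 (Ly6/uPAR), -1.28 (other GPI-anchored), 0.99 (GPI anchor synthesis) and 2.06 (interferon-stimulated).

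The labelled cell type was checked against marker lists. All 13 neutrophil markers were present in both libraries, led by S100a8 and S100a9. Of them 10 were down and 1 was up, where 5.62% of all genes kept were down and 31.5% were up. Among genes with a mean of at least 50 RPKM, 11.4% were down. The summed level of the neutrophil markers was 85119 RPKM in PBS and 32301 RPKM with exosomes. Itgam, the CD11b gene of the sort, had 313 and 393 RPKM. Of the 9698 genes kept, 7079 had a higher RPKM with exosomes. Among 12 monocyte and macrophage markers, of which 7 were kept, 12 had a higher RPKM with exosomes. None was at 0, and their summed level was 165 and 465 RPKM. Their highest members were Adgre1 (20.9 and 152 RPKM), Csf1r (58.1 and 153 RPKM) and Cd68. All 4 B cell markers were present at 104 RPKM summed in PBS and 64.1 with exosomes, each with a log2 ratio within 2-fold as for Ly6d. The 5 T and NK cell markers summed to 58.6 RPKM in PBS and 8.11 with exosomes, nearly all from Cd3d (56.4 and 7.02 RPKM), while Cd3e was at 0.06 and 0.04 RPKM. Summed levels were 10.6 and 5.29 RPKM for 5 eosinophil markers, 2.38 and 2.72 RPKM for 5 basophil and mast cell markers, and 2.65 and 1 RPKM for 6 dendritic cell markers. They were 10.7 and 17.6 RPKM for 6 markers of myeloid progenitors, and 1.36 and 0.0952 RPKM for 4 erythroid markers, 2 of which were at 0 in PBS. Summed levels of the 4 epithelial markers were 0.45 and 0.0953 RPKM. The part of these marker levels in the Ly6 values was not tested.

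Genes whose pair of levels lay nearest to that of a member, by distance between log2 RPKM values in both libraries, were looked up for 3 members. For Ly6g they were Slc2a3 (275 and 69.6 RPKM), Plp2 (285 and 77.0 RPKM) and Rhob (209 and 67.1 RPKM), at distances of 0.31 to 0.53. For Ly6i they were Lacc1 (0.58 and 15.7 RPKM), Slc32a1 (0.25 and 13.1 RPKM) and Abca1 (0.67 and 16.1 RPKM), at 0.82 to 0.98. For Ly6e they were AA467197, Glud1 and Atxn2l, all within 0.06. Likeness over 2 libraries is a weak description, and Ly6i had no neighbour as near as those of Ly6g or Ly6e.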

How the data were processed

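Reads of 2 mRNA libraries were trimmed by base quality and analysed by the authors in CLC Genomics Workbench, and the deposited values are RPKM, 1 value per feature and library. The submitters' processing notes name the mm10 build. The annotation, use of strand and treatment of reads with several matches are not given in the sources used here. A floor of 0.25 RPKM in each library was applied, and log2 ratios (exosome over PBS) were taken without a pseudocount, with 2-fold limits as in the study. Depth was estimated from values under 0.01 RPKM and GENCODE M21 transcript lengths as 66.0 M (PBS) and 79.1 M (exosome) mapped reads, where M is mega, taking the total that recurred most often (262 of 995 and 305 of 1159 values with a length) as that of values of 1 read. It was used only for the estimated read numbers and the 95% counting intervals. For summed RPKM, the interval used the read number with the same relative counting error as the sum. With 1 library per group no test or p-value was possible. The scripts (Python 3.11.15, pandas 2.3.3, scipy 1.17.1) were tested on simulated data. The tables hold 25 features with a date number as name, which were never named. Members and lists were chosen with earlier results of these data known. Rule for named genes: all 6 members, Ly6/uPAR genes and genes within 500 kb with at least 1 RPKM in either library, the 3 highest and 3 lowest log2 ratios of the other lists, and the 3 nearest genes of Ly6g, Ly6i and Ly6e. One gene that the rule names is not reported here. Marker genes, Mx1, Mx2, Tifab and C3ar1 were named in addition, after their values were seen. Alternatives were other scalings, filters, pseudocounts, a 4-fold limit and the merging of Ly6c1 with Ly6c2.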

Additional observations from a re-analysis of the deposited data

How the results depend on the processing

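The count of 3 members down held under every alternative tried, or was 2 where Ly6c1 and Ly6c2 were merged into 1 gene. The count of members up was 2, and it was 1 with centring on genes of the same level, 1 with a pseudocount of 1, 1 at a 4-fold limit and 0 where at least 1 RPKM was required in both libraries, since Ly6i and Ly6a were below 1 in PBS. The log2 ratio of the summed RPKM, -1.60, was -2.12 after median centring, -2.14 after removal of the trimmed mean, -1.55 as TPM and -1.77 with S100a8 and S100a9 left out. Ly6e changed sign, to -0.41, -0.43 and -0.057 under median centring, the trimmed mean and the omission of S100a8 and S100a9. Over their alternatives, log2 ratios ran from -2.89 to -2.30 for Ly6g, -2.72 to -2.08 for Ly6c1, -2.85 to -2.27 for Ly6c2, 4.04 to 5.94 for Ly6i and 0.85 to 1.98 for Ly6a. Alternative scalings of gene lists were added after seeing the data. The GPI synthesis genes up numbered 11, and 9, 8 and 5 under median centring, the trimmed mean and level centring. In the same order, the interferon-stimulated genes up numbered 23, and 19, 19 and 21. The other GPI-anchored genes down numbered 8 under each of these settings. No paired analysis was possible because each group holds 1 library, and for the same reason no replicate could be left out.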
